A study of Rattus norvegicus with 29 samples.

Results

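Gentamicin and TCDD, each applied for 24 h to primary rat renal proximal tubule epithelial cells, were compared here with each other directly, to describe which transcripts separate the responses to these compounds. The members are the 3 libraries of cells exposed to gentamicin for 24 h and the 3 exposed to TCDD (2,3,7,8-tetrachlorodibenzodioxin) for 24 h, 6 of the 29 libraries of the series, chosen by their titles. The reference groups were 3 control libraries at 24 h and 3 libraries each of gentamicin and TCDD at 6 h; levels are also given for acetaminophen and trichloroethylene (3 libraries each at 6 h and at 24 h) and for 2 controls at 6 h. All groups carry the same cell type label, and the sources used here give no dose, vehicle, animal number or strain. The labels do not say whether replicates are separate cultures or animals. The edgeR p-values therefore measure only the spread between replicate libraries, estimated over all 29 libraries together, which may be technical.

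Proximal tubule cells line the first stretch of the nephron and take up most of what the glomerulus filters. Gentamicin is an aminoglycoside antibiotic that enters these cells by endocytosis through the receptors megalin and cubilin and collects in their lysosomes, the basis of its known kidney toxicity. TCDD is a dioxin and a ligand of the aryl hydrocarbon receptor, a transcription factor that then moves to the nucleus, pairs with ARNT and raises genes for enzymes that oxidise and conjugate foreign compounds.

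The measurement was RNA sequencing, with an estimated read count and a TPM value (abundance scaled for transcript length and library total) for each of 28420 Ensembl transcripts. The 6 libraries at 24 h held between 9472749 and 11156296 estimated counts. Transcript identifiers were not paired with gene names: 0 of them were found in the reference table used here. The labelled cell type and the known targets of either compound were therefore not checked by marker genes, and the results are given for groups of transcripts and for 4 transcripts by identifier, with no sequence.

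After 24 h the cultures differed in most of what they expressed. Of 15990 transcripts with enough counts to test, 10903 (68.2%) differed between gentamicin and TCDD at an edgeR adjusted p under 0.05: 5526 (34.6%) were higher with gentamicin and 5377 (33.6%) were higher with TCDD. The median size was 2.14-fold among those higher with gentamicin and 2.05-fold among those higher with TCDD. Differences over 4-fold were found for 1051 transcripts in the direction of gentamicin and for 802 in that of TCDD, and differences over 16-fold for 164 and 79. These counts take a group without any count at a floor of 3 counts per library; by fitted values without that floor, 1083 and 829 were over 4-fold. On the latter count the balance turned with library totals (937 toward gentamicin, 984 toward TCDD) and was 834 against 193 on log2(TPM + 1), a scale that understates differences of low transcripts. In 2061 transcripts higher with gentamicin and 1592 higher with TCDD, the whole 95% interval of the difference lay beyond 2-fold. Counts scaled to library size (CPM) did not overlap between the 3 gentamicin and the 3 TCDD libraries in 67.9% of tested transcripts, with gentamicin above in 34.3% and TCDD above in 33.5%; in TPM the share was 63.3%, with gentamicin above in 39.4% and TCDD above in 23.9%. The standard error of a log2 difference was 0.161 at the median. In bulk RNA, fewer cells of a type and less RNA per cell cannot be told apart.

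The split between the directions was near even with the usual TMM scaling, at 50.7% higher with gentamicin, but it depended on the scale. Tested on log2(TPM + 1) with limma, 61.9% of calls were higher with gentamicin and the median log2 difference over all transcripts was 0.175. With library totals the share was 45% and that median -0.128. None of the 10903 calls turned to a call in the opposite direction under any alternative run, but some were lost. The share called again in the same direction was 86.9% on log2(TPM + 1) and 83.7% with fragment length as a covariate. It was lowest, at 82%, with a filter at 10 CPM, which tests fewer transcripts.

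**Figure D1:**
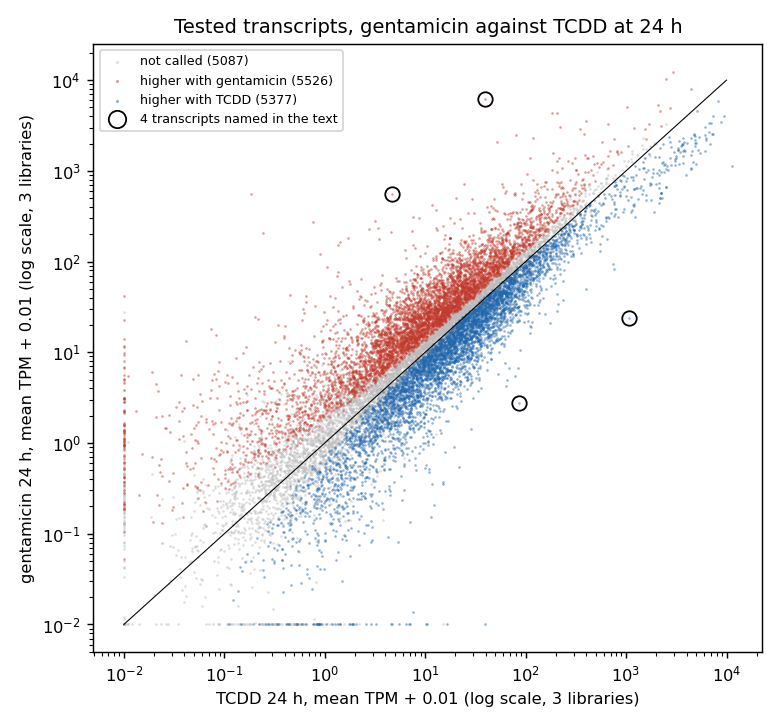
Mean TPM + 0.01 of each tested transcript with gentamicin (vertical) and with TCDD (horizontal) at 24 h, 3 libraries each, both axes on a log scale, with the line of equality. Red points are the 5526 transcripts higher with gentamicin, blue points the 5377 higher with TCDD, grey points those not called, and circles the 4 named transcripts, which lie far from the line on both sides.

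Separation was seen at all levels of expression. When the tested transcripts were divided into 4 equal classes by mean TPM over the 6 libraries, 42.9% were called in the lowest class (up to 3.01 TPM), 72.1% and 78.5% in the middle classes, and 79.3% in the highest (36 TPM and above). The 4-fold differences toward TCDD became fewer with level, at 374, 231, 115 and 82 from the lowest class to the highest. Those toward gentamicin were spread more evenly, with 332 in the lowest class and 229 in the highest. Among the 5087 transcripts without a call, the 95% interval lay within 2-fold either way in 2739 (53.8%). The 2739 include transcripts with almost no counts in either group, such as ENSRNOT00000058422, which were fitted without difference or spread. For those the interval says nothing, and their number was not counted. A 2-fold difference was thus compatible with the data in at least the other 2348.

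The transcript with the largest difference toward gentamicin among those with at least 10 counts in all 6 libraries and at least 50 TPM was ENSRNOT00000038212, of 389 bases. Its level was 5654.3, 5971.3 and 7055.1 TPM in the 3 gentamicin libraries at 24 h, which placed it among the 100 most abundant transcripts there. The TCDD libraries held 50.7, 26.9 and 41.7 TPM. No library of either group came near the other, and the log2 difference was 6.9 ± 0.21 (SE, n = 3 each; edgeR adjusted p = 1.9e-18). Against the 3 controls at 24 h (91.7, 101.9 and 41.2 TPM) the log2 difference was 6.59 for gentamicin and -0.31 for TCDD, and the latter was not called (adjusted p = 0.24). The separation was already present at 6 h, at 1753.0 ± 80.3 TPM with gentamicin and 103.5 ± 12.3 TPM with TCDD (SD, n = 3 each), a log2 difference of 4.16 ± 0.18 (edgeR adjusted p = 1.1e-13). Its estimated counts were not whole numbers, which means that part of its reads was shared with other transcripts of the set and divided by the authors' tool.

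ENSRNOT00000020528, of 2333 bases, differed between the compounds in both directions from control. The gentamicin libraries at 24 h held 578.5, 577.3 and 514.0 TPM, the TCDD libraries 5.43, 3.59 and 4.89 TPM, and the controls 43.5, 37.7 and 40.0 TPM. Every gentamicin library was above and every TCDD library below every control. The log2 difference between the compounds was 6.67 ± 0.14 (SE, n = 3 each; edgeR adjusted p = 1.5e-21), made up of 3.92 for gentamicin against control (adjusted p = 1.1e-18) and -2.74 for TCDD against control (adjusted p = 2.9e-15), comparisons that share the controls. Acetaminophen at 24 h stood second, at 298.6 ± 16.2 TPM (SD, n = 3), and trichloroethylene at 18.5 ± 0.945 TPM lay between control and TCDD. At 6 h the gentamicin libraries held 139.9, 132.6 and 102.8 TPM and the TCDD libraries 31.5, 32.1 and 37.6 TPM, beside 26.3 and 32.3 TPM in the controls of that time. Acetaminophen at 6 h, with 167.9, 191.6 and 189.2 TPM, was above every gentamicin library of that time. Its counts were whole in all 6 libraries at 24 h.

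On the TCDD side, ENSRNOT00000071549, of 1047 bases, had the largest difference under the same conditions. Its level was 1146.7, 811.5 and 1216.2 TPM in the TCDD libraries at 24 h. The gentamicin libraries held 25.5, 21.2 and 24.9 TPM, and the controls 11.7, 14.6 and 20.4 TPM, so all gentamicin libraries lay just above all controls. Acetaminophen at 24 h held 60.8, 83.5 and 48.7 TPM and trichloroethylene 27.0, 53.1 and 41.6 TPM. Both were above every control and every gentamicin library of that time but well below TCDD. The log2 difference between gentamicin and TCDD was -5.72 ± 0.28 (SE, n = 3 each; edgeR adjusted p = 3.5e-14). Against control it was 6.48 for TCDD (adjusted p = 1.7e-14) and 0.77 for gentamicin (adjusted p = 0.03). The compounds were not told apart at 6 h, where the means were 28.2 ± 2.23 TPM with gentamicin and 30.7 ± 11.1 TPM with TCDD (SD, n = 3 each; log2 difference -0.11 ± 0.27 SE, edgeR adjusted p = 0.85). Its counts, like those of ENSRNOT00000038212, included shared reads.

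ENSRNOT00000043572, of 1282 bases, was a scarcer transcript that also stood highest with TCDD. TCDD libraries at 24 h held 59.0, 114.2 and 84.2 TPM and gentamicin libraries 2.59, 3.01 and 2.69 TPM, the latter below all 3 controls (3.82, 4.25 and 5.88 TPM). The log2 difference was -5.26 ± 0.28 (SE, n = 3 each; edgeR adjusted p = 3.9e-14). Gentamicin against control gave -0.61, which was not called (adjusted p = 0.12), and TCDD against control gave 4.65 (adjusted p = 2.2e-13). At 6 h the means were 3.11 ± 1.1 TPM and 3.14 ± 0.486 TPM (SD, n = 3 each), with a log2 difference of 0.02 ± 0.35 (edgeR adjusted p = 0.99). Acetaminophen at 24 h, with 18.7, 20.1 and 22.4 TPM, and trichloroethylene, with 8.31, 8.07 and 9.1 TPM, were above every control but well below TCDD.

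**Figure D2:**
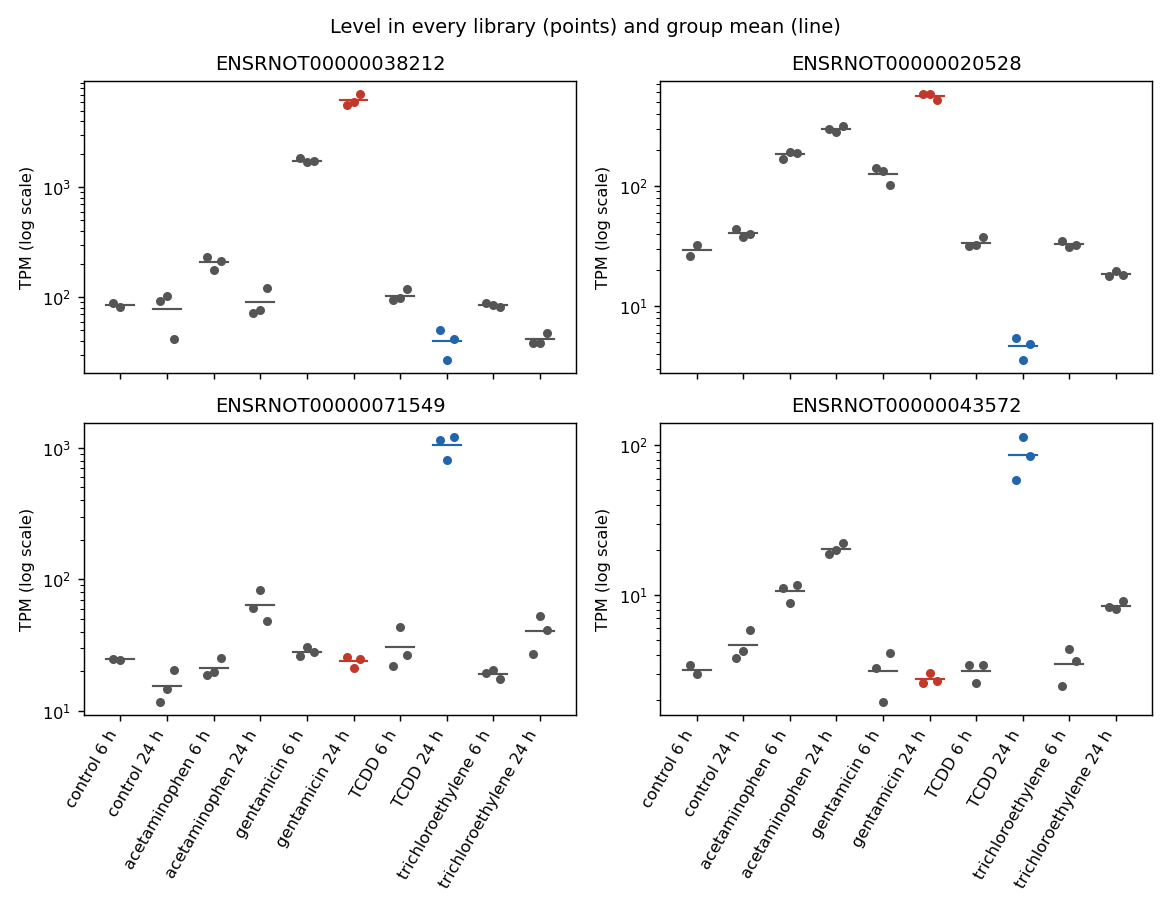
TPM (log scale) of the 4 named transcripts in all 29 libraries, by compound and time; points are libraries and short lines group means. Red marks gentamicin and blue TCDD at 24 h: the upper transcripts stand at means of 6226.9 and 556.6 TPM with gentamicin, the lower ones at means of 1058.1 and 85.8 TPM with TCDD, and those on the gentamicin side were already raised at 6 h. Acetaminophen at 6 h also stood above control in the upper transcripts, at means of 207.6 and 182.9 TPM beside 85.6 and 29.3 TPM.

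Some transcripts were counted with one compound and not with the other. With gentamicin, 35 transcripts had at least 10 counts in every 24 h library and no count in any TCDD library of that time; the reverse was found for 10. The gentamicin transcripts stood at a median of 2.25 TPM (range of means 0.179 to 42 TPM) and the TCDD transcripts at 5.77 TPM (0.425 to 16.6 TPM). Setting the empty group at 3 counts per library, the median transcript of the first set was at least 8.96-fold higher with gentamicin, and that of the second at least 8.99-fold higher with TCDD. These sets were defined by the contrast itself and are given as a description. Of the 35, the controls at 24 h also had no count in 13, and 4 had at least 10 counts in every control; those 4 were counted in untreated cells and not with TCDD. At 6 h, 8 of the 35 had at least 10 counts in every gentamicin library. The same held for 7 in the 2 controls of that time, 6 with TCDD, 6 with trichloroethylene and 2 with acetaminophen. Of the 10, the controls at 24 h had no count in 3 and at least 10 counts in every library in 2.

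The place of the untreated cultures in the separation was described next. The compounds share the controls, and the sets were chosen by the gentamicin and TCDD libraries themselves, so these values are a description. In the 1051 transcripts over 4-fold higher with gentamicin, the median log2 difference from control was 1.61 for gentamicin and -1.2 for TCDD. In the 802 over 4-fold higher with TCDD, it was 1.79 for TCDD and -0.9 for gentamicin. The medians were thus up with one compound and down by less with the other. They do not describe every transcript: the fitted control level lay between the compounds in 593 of the 1051 (56.4%) and 554 of the 802 (69.1%). Gentamicin was called higher than control in 729 of the 1051 (69.4%) and lower in 89, and TCDD was called lower in 605 (57.6%) and higher in 130. Of the 802, TCDD was called higher than control in 627 (78.2%) and lower in 11, and gentamicin lower in 391 (48.8%) and higher in 54. Over all 15990 tested transcripts, gentamicin was called different from control in 59.6% (29.1% higher, 30.5% lower) and TCDD in 66.9% (33.9% higher, 33.0% lower). As levels, the median transcript of the 1051 stood at 17 TPM with gentamicin, 6.17 TPM in controls and 1.74 TPM with TCDD, and that of the 802 at 0.894, 2.23 and 6 TPM in the same order.

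The sets were chosen by the difference between gentamicin and TCDD, and the acetaminophen and trichloroethylene libraries entered that choice through the low-count filter, the scaling and the shared estimate of spread. In the transcripts over 4-fold higher with TCDD, trichloroethylene at 24 h stood above control by a median log2 of 0.57 and acetaminophen by 0.34. Trichloroethylene lay nearer to TCDD than to gentamicin in 60.1% of the 802, acetaminophen in 47.4% and the controls of 24 h in 32.5%. In the transcripts over 4-fold higher with gentamicin, neither compound had such a shift: the medians were -0.09 for trichloroethylene and 0.03 for acetaminophen. There trichloroethylene lay nearer to gentamicin in 39.5% of the 1051, acetaminophen in 47% and the controls in 44.2%. These are counts over transcripts of the same libraries, without a test.

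**Figure D3:**
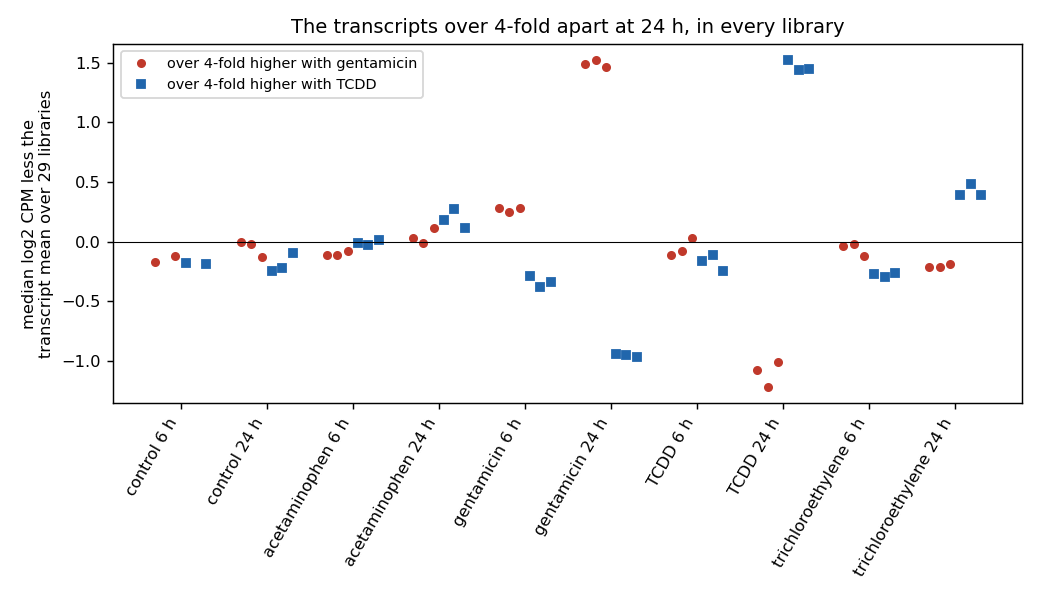
Each point is 1 of the 29 libraries: the median, over the 1051 transcripts over 4-fold higher with gentamicin (red circles) or the 802 over 4-fold higher with TCDD (blue squares), of the log2 CPM less each transcript's mean over all libraries. The extreme values of gentamicin and TCDD at 24 h follow from how the sets were chosen; trichloroethylene at 24 h stands at 0.39 to 0.48 in the TCDD set, and gentamicin at 6 h at 0.25 to 0.28 in the gentamicin set.

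Whether the separation began early was asked in the 6 h libraries, which are separate from those of 24 h and share with them the low-count filter, the scaling and the estimate of spread. At 6 h, 2571 transcripts (16.1%) differed between gentamicin and TCDD, 1414 higher with gentamicin (8.84%) and 1157 higher with TCDD (7.24%). Of the 1051 transcripts over 4-fold higher with gentamicin at 24 h, 271 (25.8%) were called higher with gentamicin at 6 h and 31 (2.95%) higher with TCDD. Set against the 8.84% of all tested transcripts, the gentamicin side was thus well above background. Of the 802 on the TCDD side, 73 (9.1%) were called higher with TCDD at 6 h and 21 (2.62%) higher with gentamicin. The first was near the background of 7.24%, and the second was below its background of 8.84%. In either direction 11.7% of the 802 were called at 6 h, beside 16.1% of all tested transcripts. On the gentamicin side the opposite share, 2.95%, was likewise below its background of 7.24%. The sets differed in level at 6 h. The median transcript stood at 8.28 TPM with gentamicin and 5.93 TPM with TCDD in the 1051, and at 1.71 and 1.98 TPM in the 802. Rare transcripts were called less often at 24 h, and these backgrounds cover all levels. The part of level in the contrast between the sets was not tested. The median log2 difference at 6 h was 0.29 in the gentamicin set and -0.15 in the TCDD set. Across all 15990 transcripts (transcripts share libraries and are not replicates), the log2 differences at 6 h and 24 h correlated at r = 0.177 (Spearman 0.194).

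Read from the early side, 949 of the 1414 transcripts higher with gentamicin at 6 h (67.1%) were called in the same direction at 24 h, and 248 (17.5%) were called higher with TCDD. Of the 1157 higher with TCDD at 6 h, 594 (51.3%) kept their direction and 316 (27.3%) were higher with gentamicin at 24 h. The difference between the times was tested by an interaction contrast, which passed for 8879 transcripts (55.5%), of which 4514 shifted toward gentamicin and 4365 toward TCDD between 6 h and 24 h. In 883 transcripts called in the same direction at both times, the difference was larger at 24 h by the same test, as it was for ENSRNOT00000038212 (by 2.74 ± 0.27 on the log2 scale, SE; edgeR adjusted p = 5.5e-09) and ENSRNOT00000020528 (by 4.75 ± 0.17, adjusted p = 1.1e-16).

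Transcript length went with the direction of the difference. Among the longest quartile of tested transcripts (3141 to 25698 bases), 1956 were higher with gentamicin and 858 higher with TCDD, so 69.5% of calls were on the gentamicin side. Among the shortest quartile (78 to 1291 bases), 989 were higher with gentamicin and 1450 higher with TCDD, a share of 40.5%. The median log2 difference was 0.44 in the longest quartile, -0.03 and -0.19 in the middle quartiles, and -0.21 in the shortest. At 6 h the medians were -0.04 in the longest and 0.04 in the shortest quartile. Against control at 24 h, TCDD gave -0.44 in the longest quartile and 0.25 in the shortest, while gentamicin gave -0.07 and -0.06. In TPM, which is set per length, transcripts of the longest quartile made up 5.83% of the tested total with TCDD, 9.78% with gentamicin and 10% in controls.

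**Figure D4:**
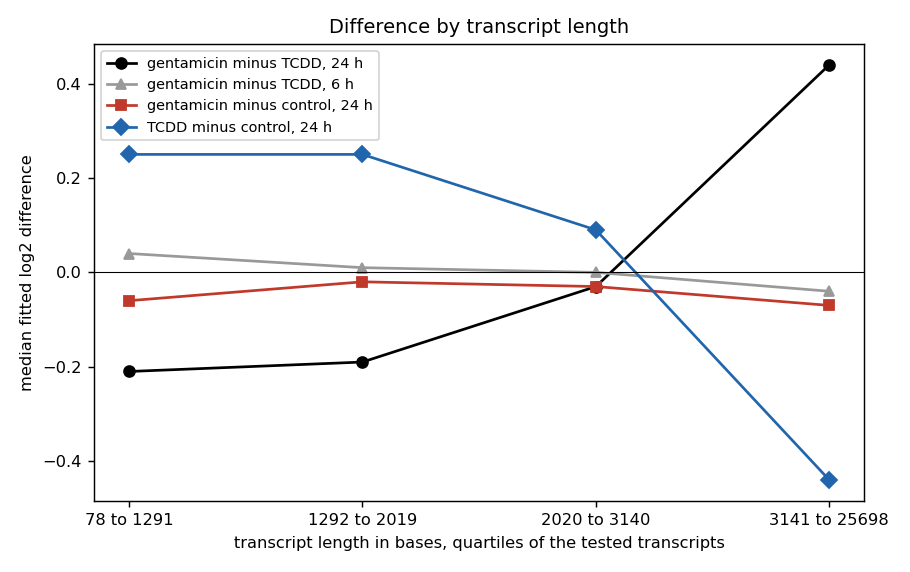
Median fitted log2 difference in each quartile of the 15990 tested transcripts by length, for gentamicin minus TCDD at 24 h (black) and 6 h (grey), and for gentamicin (red) and TCDD (blue) minus control at 24 h. The black line runs from -0.21 to 0.44, the blue line from 0.25 to -0.44, and the red line stays between -0.07 and -0.02.

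Fragment length moved with this result. The number of bases between transcript length and effective length, a measure of the mean sequenced fragment taken over transcripts of at least 1000 bases, was 230.3, 238.1 and 233.8 in the TCDD libraries at 24 h and 261.5, 264.5 and 259.2 in the gentamicin libraries. The groups did not overlap (exact permutation test, two-sided p = 0.1, the smallest that 3 against 3 allows). The controls at 24 h had longer fragments than either, at 269.9 to 288.8 bases. Gentamicin fragments were also shorter than those of controls. Longest minus shortest quartile, as the median log2 CPM relative to the series, was 0.17 ± 0.197 with gentamicin and 0.22 ± 0.185 in controls (SD, n = 3 each). For acetaminophen at 24 h that measure was -0.1, 0.08 and 0.31 at 232.7, 253.9 and 274.7 bases, the first within the TCDD range. It rose with fragment length in gentamicin (-0.05, 0.23 and 0.33) and in controls (0.01, 0.29 and 0.36) too. No such order was seen within TCDD (-0.41, -0.21 and -0.81 at 230.3, 233.8 and 238.1 bases). Trichloroethylene at 24 h had none either (0.05, 0.01 and 0.06 at 248.3, 258.0 and 259.0 bases). With fragment length as a covariate, the median difference was 0.32 in the longest and -0.04 in the shortest quartile. The shares of calls higher with gentamicin were then 66.7% and 46.9%. On log2(TPM + 1) the shortest quartile changed sign, to a median of 0.07, and the longest stood at 0.44. TCDD replicate 2 was the most extreme library by longest minus shortest quartile: the value was -0.81 there, -0.41 and -0.21 in the other TCDD libraries, and 0.23, 0.33 and -0.05 in the gentamicin libraries. Without it, the longest quartile had a median of 0.35 and the shortest -0.12. The part of fragment length or RNA quality in the trend was not tested beyond these values.

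The most abundant transcripts also separated the compounds. The 100 most abundant transcripts of each library held 39%, 43.1% and 35.9% of all TPM with TCDD at 24 h, and 26.6%, 25.8% and 28.5% with gentamicin. All TCDD libraries were above all gentamicin libraries and above the controls of 24 h, at 29.4% to 30.8% (two-sided exact permutation p = 0.1 for each, the smallest possible). At 6 h the shares overlapped, at 26.2% to 27.8% with gentamicin and 26.7% to 28.3% with TCDD (exact permutation p = 0.5). By group means, 60 transcripts belonged to the top 100 of both compounds at 24 h. These 60 took 27.3% ± 2.69 of TPM with TCDD, 17.4% ± 1.15 with gentamicin and 17.9% ± 1.23 in controls (SD, n = 3 each). Of the 60, 51 were called higher with TCDD and 7 higher with gentamicin, beside 33.6% and 34.6% of all tested transcripts. On log2(TPM + 1) the counts were 48 and 8, and with the fragment length covariate 47 and 7. The 60 were short, with a median of 525.5 bases beside 2019 bases over all tested transcripts, so abundance and length moved together here.

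The 40 transcripts that were in the top 100 with gentamicin only held 9.49% ± 0.34 of TPM there, 3.64% ± 0.13 with TCDD and 4.71% ± 0.196 in controls (SD, n = 3 each). Of these, 12 were over 4-fold higher with gentamicin, led by ENSRNOT00000038212. The 40 in the top 100 with TCDD only held 11.9% ± 0.927 with TCDD, 3.95% ± 0.502 with gentamicin and 6.3% ± 0.467 in controls, and 16 of them were over 4-fold higher with TCDD. Membership was set by these levels, so the differences are a description of size.

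**Figure D5:**
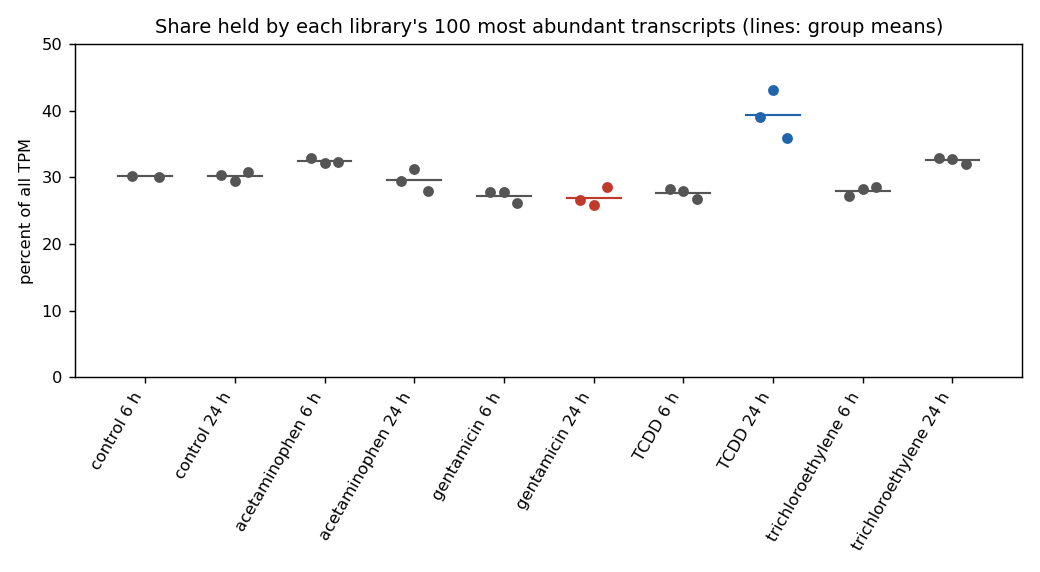
Percent of all TPM held by the 100 most abundant transcripts of each library, by compound and time; points are libraries and short lines group means, with the axis from 0. TCDD at 24 h (blue) stands at 35.9% to 43.1% and gentamicin at 24 h (red) at 25.8% to 28.5%, with the other groups between 26.2% and 32.9%.

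Because reads can be shared between transcripts of the same gene or of similar genes, the calls were also read by whether counts were whole. In 10020 tested transcripts (62.7%) the estimated counts were whole to within 0.001 in all 6 libraries at 24 h, so that no division of reads was visible. Of these, 7370 (73.6%) were called, 3604 higher with gentamicin and 3766 higher with TCDD. In the remaining 5970, 3533 (59.2%) were called. Differences over 4-fold made up 11.4% of the first class and 12% of the second, so large differences were about as common where no shared reads were visible.

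The TCDD libraries varied more among themselves than the gentamicin libraries. Over the 8694 transcripts of at least 10 TPM, the median SD of log2 CPM within a group was 0.175 with TCDD, 0.128 with gentamicin and 0.132 in controls at 24 h. TCDD replicate 2 lay farthest from its group, at a median distance of 0.252 beside 0.107 and 0.191 for the others. The count of calls was 10515 without it, and between 10313 and 10584 when any 1 of the 6 libraries was left out.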

How the data were processed

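The authors quantified transcripts with kallisto 0.43, per the submitters' processing notes. The deposited tables give, per the file headers, estimated counts, TPM, length and effective length of each transcript. TPM values are counts divided by effective length and then scaled to the same sum in each library. The transcript set, build, strand setting and read trimming were not given in the sources used here. Estimated counts were rounded. Transcripts were kept by filterByExpr (minimum count 10), which left 15990 of 28420 with 99.95% of counts. With edgeR 4.0.16 in R 4.3.3, TMM factors and 1 robust quasi-likelihood model over all 29 libraries (19 residual degrees of freedom) were used, with contrasts tested by F and called below 0.05 after Benjamini-Hochberg adjustment. SE is the log2 difference over the square root of F. Groups without a count were set at 3 counts per library. Intervals are 95%. The steps were tested on simulated data.

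The 4 named transcripts are the 2 with the largest fitted difference in each direction among calls with 10 or more counts in each of the 6 libraries, a mean of 50 TPM or more in the higher group and groups that do not overlap. The planned gene lists need gene names and were not used. Members and rules were chosen with earlier results of these data known. In gentamicin and TCDD at both times and in controls at 24 h, no replicate was a copy of another. Chi-square per degree of freedom was 3.64 to 30.3 between replicates at 24 h and 3.58 to 15 at 6 h. The other groups were not checked. Alternatives were DESeq2 1.42.0, limma 3.58.1 on log2(TPM + 1), other scalings, filters and fits, and leaving out libraries.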

Additional observations from a re-analysis of the deposited data

Results flagged for a closer look

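The gentamicin minus TCDD difference itself differed between 24 h and 6 h in 8879 of 15990 transcripts by the edgeR interaction test. The 4 named transcripts were among them: the log2 difference was more toward gentamicin at 24 h by 2.74 for ENSRNOT00000038212 and by 4.75 for ENSRNOT00000020528, and more toward TCDD for ENSRNOT00000071549 (-5.61) and ENSRNOT00000043572 (-5.28). In each case all 3 gentamicin libraries at 24 h lay on the same side of all 3 TCDD libraries, which the rule for naming required. The transcripts were named for their 24 h difference, which enters this test. No group holds the 4 libraries that a check for a single outlying value needs.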

How the results depend on the processing

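The count of transcripts called between gentamicin and TCDD at 24 h was 10903 and ran from 9044 (filter at 10 CPM, fewer transcripts tested) to 10980 (no filter) over the alternatives that keep all libraries. At 6 h it was 2571, with a range of 1803 on log2(TPM + 1) to 3207 with fragment length as a covariate, and 1810 to 2417 when a library was left out. For the difference between the times it was 8879, with a range of 7728 to 8921. All these counts stayed within 1.5 times. With the replicate number as a block, 10847 transcripts were called at 24 h and 2424 at 6 h. Same-numbered libraries of gentamicin and TCDD correlated at -0.141 to 0.0413 in their deviations at 24 h. At 6 h the same-numbered values were 0.0246, 0.032 and 0.198, beside -0.16 to 0.128 for different numbers. The numbers were not taken as pairs. Of the 10903 calls, the share called again in the same direction was lowest with the 10 CPM filter (82%) and the fragment length covariate (83.7%). The named transcripts passed under each alternative, with log2 differences of 6.72 to 7.3 for ENSRNOT00000038212, 6.54 to 6.78 for ENSRNOT00000020528, -5.85 to -5.22 for ENSRNOT00000071549 and -5.5 to -4.48 for ENSRNOT00000043572. With only the compared groups in the fit, their edgeR adjusted p-values were larger, at 1.1e-06, 3.7e-07, 7.4e-07 and 1.2e-05 in the same order. Counts against control at 24 h ran from 7917 to 9996 for gentamicin and from 7729 to 10742 for TCDD, alternatives chosen after the data were seen. Fitted differences over 4-fold (1083 toward gentamicin, 829 toward TCDD) numbered 639 and 368 with the 10 CPM filter, which tests fewer transcripts. Of transcripts up to 3.01 TPM, 42.9% were called; the part of depth in this was not tested.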
